A study of Mus musculus with 21 samples.

Results

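Expression of the genes for the CD3 chains of the T cell receptor complex, the CD4 and CD8 coreceptors and the T cell surface proteins CD28, CD2 and CD5 was examined in skin and skin-draining inguinal lymph nodes of *Ifnk* TG and WT mice. The members are *Cd3d*, *Cd3e*, *Cd3g*, *Cd247*, *Cd4*, *Cd8a*, *Cd8b1*, *Cd28*, *Cd2* and *Cd5*. They were picked by gene symbol, and the 10 symbols were found once each among the 55491 genes of both expression tables. All 10 passed the filter on low counts in both tissues. RNA sequencing of poly-A RNA gave 9 skin libraries, 3 from WT skin, 2 from nonlesional (NL) and 4 from lesional (L) *Ifnk* TG skin, all from mice aged 12 months. The 12 lymph node libraries came from mice whose age the labels do not give, 3 each from WT and *Ifnk* TG mice left untreated (NoTx) or irradiated with UVB. Irradiated mice received UVB at 250 mJ/cm2 in repeated sessions after their backs were shaved, and nodes were taken after a further observation period. The transgene places *Ifnk*, an interferon gene, under the keratin 14 promoter, which is active in basal keratinocytes, and was made on C57BL/6 and backcrossed to BALB/c, the strain of the WT mice. Nodes were passed through a cell strainer before lysis, so the RNA is that of the material that passed it and may not stand for the whole node. Labels give neither sex, mouse nor body site for a library, so whether NL and L skin came from the same animals is not known.

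T cells recognise antigen through a receptor of variable chains that has no signalling tail of its own. The CD3 gamma, delta and epsilon chains and the zeta chain, encoded by *Cd247*, carry the signal into the cell. CD4 binds MHC class II and marks helper and regulatory T cells, whereas the CD8 alpha and beta chains bind MHC class I and mark cytotoxic T cells. Mouse epidermis also holds resident gamma delta T cells, which carry CD3 but mostly lack CD4 and the CD8 beta chain.

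By build GRCm38 with GENCODE M21, *Cd3g* (chromosome 9, 44969572 to 44980431, minus strand) and *Cd3d* (chromosome 9, 44981786 to 44987339, plus strand) lie head to head, with *Cd3e* nearby (chromosome 9, 44998740 to 45009627, minus strand). *Cd8b1* (chromosome 6, 71322788 to 71337494, plus strand) and *Cd8a* (chromosome 6, 71373427 to 71379173, plus strand) are also neighbours, and *Cd4* is on the same chromosome from 124864692 to 124888221 on the minus strand. *Cd247* (chromosome 1, 165788681 to 165877277) and *Cd28* (chromosome 1, 60716800 to 60773359) are on the plus strand, and *Cd2* (chromosome 3, 101275899 to 101287939) and *Cd5* (chromosome 19, 10717116 to 10739002) on the minus strand. The RefSeq promoter table (GRCm38.p6, 250 bases before to 50 after the start) held 6 of the 10 members and not *Cd4*, *Cd8b1*, *Cd28* or *Cd2*. Shown are the head-to-head pair *Cd3d* and *Cd3g*, whose log2 fold changes in L against WT skin had opposite signs without passing the test, and *Cd8a* and *Cd5*, which were higher in L skin. Capitals mark the ETS-type motif AGGAAG and the E-box motifs CAGCTG and CAGGTG, each searched on both strands, and none of the marked runs overlap.
Cd3d, chr9:44981536-44981835, plus strand: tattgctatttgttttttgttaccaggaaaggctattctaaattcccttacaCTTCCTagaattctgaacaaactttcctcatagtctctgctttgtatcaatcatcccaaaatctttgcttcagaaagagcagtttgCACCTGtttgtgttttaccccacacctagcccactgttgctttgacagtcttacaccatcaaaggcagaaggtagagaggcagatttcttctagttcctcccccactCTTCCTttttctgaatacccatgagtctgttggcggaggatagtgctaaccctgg
Cd3g, chr9:44980382-44980681, minus strand: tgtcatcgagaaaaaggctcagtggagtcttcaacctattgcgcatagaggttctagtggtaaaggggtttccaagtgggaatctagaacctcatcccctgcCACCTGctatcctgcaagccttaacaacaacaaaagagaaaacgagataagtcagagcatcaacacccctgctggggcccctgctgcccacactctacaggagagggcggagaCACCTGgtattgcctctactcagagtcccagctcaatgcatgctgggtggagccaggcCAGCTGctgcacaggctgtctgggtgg
Cd8a, chr6:71373177-71373476, plus strand: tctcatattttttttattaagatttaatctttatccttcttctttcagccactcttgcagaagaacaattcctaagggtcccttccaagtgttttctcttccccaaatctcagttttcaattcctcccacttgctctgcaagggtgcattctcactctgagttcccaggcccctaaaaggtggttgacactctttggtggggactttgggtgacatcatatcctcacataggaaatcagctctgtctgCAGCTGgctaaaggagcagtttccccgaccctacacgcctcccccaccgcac
Cd5, chr19:10738925-10739224, minus strand: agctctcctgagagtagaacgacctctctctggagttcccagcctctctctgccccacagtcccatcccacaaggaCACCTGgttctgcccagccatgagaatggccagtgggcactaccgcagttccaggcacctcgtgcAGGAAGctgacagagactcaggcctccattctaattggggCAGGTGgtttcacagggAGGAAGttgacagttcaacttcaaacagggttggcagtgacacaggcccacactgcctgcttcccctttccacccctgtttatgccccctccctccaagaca
CAGGTG was present in 5 of the 6 member promoters and in 20.2% of all 32851 promoters in the table. AGGAAG was present in 4 of the 6 against 35.4% of all, and CAGCTG in 2 of the 6 against 16.3%. The RUNX-type motif TGTGGT was found in 0 of the 6 and in 16.8% of all promoters. These matches describe letters in a window and not binding.

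Total counts ranged from 40499078 to 56511276 in skin and from 27599809 to 36428435 in lymph nodes. *Ifnk* had 0 counts in each WT skin library, 6 and 0 counts in NL skin and 14, 11, 5 and 8 counts in L skin, and whether transgene transcripts are counted under this gene was not tested. L skin also differed in tissue make-up. The summed level of 10 hair shaft genes lay between 4372 and 12109 CPM (counts relative to the scaled library size) in L and between 4.84 and 7.00 CPM in WT skin, and that of 10 skeletal muscle genes between 31.1 and 9135 CPM in L and between 34105 and 47124 CPM in WT skin. Refitting skin without genes of skeletal muscle, adipocytes and the hair shaft changed no call and no sign of a member. The part of tissue make-up itself in the results below was not tested. In lymph nodes, B cell markers and the members were abundant, whereas keratinocyte genes summed to at most 2.51 CPM.

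In L skin, 6 of the 10 members were higher than in WT skin, and none of the 4 CD3 chain genes was among them. The 6 were *Cd4*, *Cd8a*, *Cd8b1*, *Cd28*, *Cd2* and *Cd5*, at an adjusted p under 0.05 from edgeR's quasi-likelihood test over 19101 genes. Of all tested genes, 23.0% were called higher in this comparison. The median log2 fold change of the members was 1.56 and that of all tested genes 0.06. In 5 of the 6, all but *Cd2*, every L library lay above every WT library, which held for 26.0% of tested genes. Genes on lists for other leukocytes were also called higher in L skin. They were 2 of 6 pan-leukocyte, 3 of 6 neutrophil, 2 of 6 NK cell and 3 of 9 B cell genes, with 1 NK cell gene called lower. The 3 on the neutrophil list were *S100a9*, *Cxcr2* and *S100a8*, and which cells expressed them was not tested. The pan-leukocyte sum lay between 234 and 372 CPM in WT and between 280.5 and 489.5 CPM in L skin, and the neutrophil sum between 38.3 and 47.7 CPM and between 68.1 and 624 CPM. The NK cell sum lay between 12.4 and 17.2 CPM in WT and between 11.6 and 25.5 CPM in L skin, with *Klra8* at 0 counts in both, and the B cell sum between 1.94 and 5.64 CPM and between 5.39 and 8.16 CPM. *Ptprc*, the gene of the leukocyte antigen CD45, rose by 0.59 ± 0.20 on the log2 scale (adjusted p = 0.0417), and the part of these cells in the results on the members was not tested. These are bulk samples, in which more cells of a type and more RNA per cell cannot be told apart.

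The CD3 chains differed among themselves. *Cd3d*, encoding the delta chain, measured 3.76, 2.30 and 3.34 CPM in WT libraries 8, 9 and 10, and 5.94, 6.56, 7.51 and 3.14 CPM in L libraries 4, 5, 6 and 7. L library 7 lay within the WT range and the other three above it. The log2 fold change was 0.88 ± 0.34 (SE), with an adjusted p of 0.0647 that missed the threshold. DESeq2 called it, and so did edgeR without L library 7. Over the alternatives with all libraries the adjusted p ran from 0.0397 to 0.101.

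*Cd3e*, the epsilon chain, measured 7.48, 5.48 and 7.42 CPM in WT skin and 6.28, 5.03, 4.91 and 3.48 CPM in L skin. *Cd247*, the zeta chain, measured 7.69, 4.53 and 7.02 CPM in WT skin and 5.81, 5.23, 3.28 and 2.94 CPM in L skin. For both genes the L libraries reached from within the WT range to below it. The log2 fold changes were -0.46 ± 0.25 for *Cd3e* (adjusted p = 0.161) and -0.57 ± 0.31 for *Cd247* (adjusted p = 0.162). *Cd3g*, the gamma chain, measured 22.2, 14.1 and 19.3 CPM in WT and 18.7, 21.5, 17.8 and 10.3 CPM in L skin, where library 7 alone lay outside the WT range, and its log2 fold change was -0.12 ± 0.26 (adjusted p = 0.740). L library 7 was the lowest of the L libraries for all 4 CD3 chain genes. Antisense or same-strand transcripts overlap *Cd3e* and *Cd247* in the annotation, and whether they share reads was not tested.

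**Figure D1:**
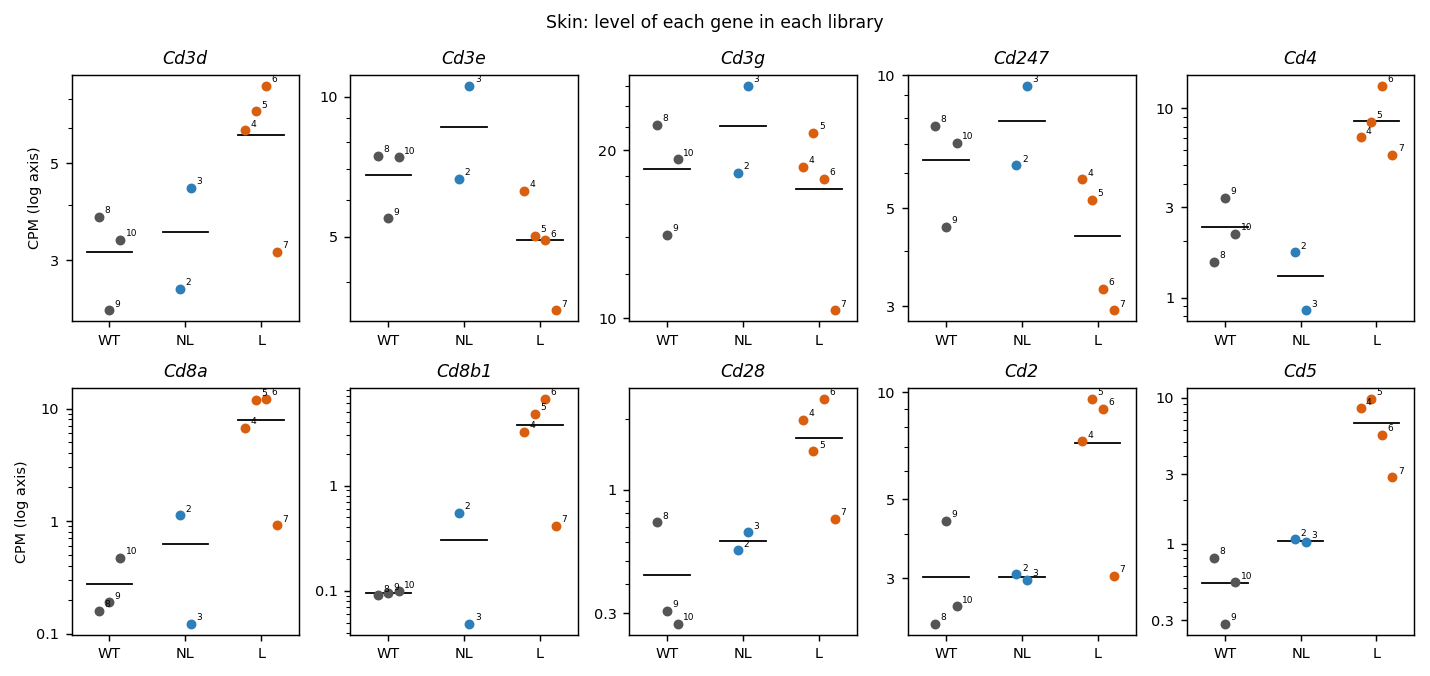
Level of each member in each skin library in CPM on log axes that differ between panels, by group (WT, NL, L); points carry the library number and lines are group means. *Cd4*, *Cd8a*, *Cd8b1*, *Cd28* and *Cd5* lie higher in all 4 L libraries than in the 3 WT libraries, while the CD3 chain genes overlap.

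The coreceptors rose in L skin. *Cd4* measured 1.55, 3.37 and 2.18 CPM in WT skin and 7.03, 8.51, 13.2 and 5.69 CPM in L skin (log2 fold change 1.86 ± 0.40, 3.63-fold, adjusted p = 0.00639). All L libraries stood above all WT libraries. *Cd8a* was scarce in WT skin, at 0.160, 0.190 and 0.470 CPM, and reached 6.74, 11.9, 12.1 and 0.919 CPM in L skin. Its log2 fold change was 4.85 ± 1.11 (28.9-fold, adjusted p = 0.00899). *Cd8b1* rested on 4 counts in each WT library and on 178, 194, 300 and 23 counts in the L libraries, with a log2 fold change of 5.27 ± 1.12 (38.5-fold, adjusted p = 0.00649). For both CD8 genes L library 7 was far below the other L libraries but still above WT skin. *Cd8a* is also expressed by a subset of dendritic cells, and *Xcr1*, a marker of that subset, was higher in L skin too (log2 fold change 2.07 ± 0.60, adjusted p = 0.0218), whereas *Cd8b1* is largely restricted to T cells. *Xcr1* was the 1 gene called higher of 8 on a list of dendritic cell genes. The list had 3 genes called lower, *Siglech*, *Cd209a* and *Zbtb46*, and summed to between 32.6 and 74.0 CPM in WT and between 28.4 and 37.8 CPM in L skin. The part of dendritic cells in the *Cd8a* result was not tested.

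CD28 delivers the costimulatory signal that T cells need beside the receptor. *Cd28* measured 0.730, 0.309 and 0.272 CPM in WT skin and 1.98, 1.46, 2.42 and 0.757 CPM in L skin (log2 fold change 1.91 ± 0.51, adjusted p = 0.0157). The lowest L library only just exceeded the highest WT library. *Cd5*, encoding an inhibitory surface protein of T cells and some B cells, had the smallest adjusted p of the members. It measured 0.798, 0.285 and 0.544 CPM in WT and 8.43, 9.77, 5.57 and 2.85 CPM in L skin (log2 fold change 3.61 ± 0.52, 12.2-fold, adjusted p = 0.000927). *Cd2*, encoding an adhesion receptor of lymphocytes, had 2.24, 4.34 and 2.50 CPM in WT and 7.28, 9.57, 8.97 and 3.04 CPM in L skin. L library 7 lay inside the WT range for *Cd2*, whose log2 fold change was 1.25 ± 0.40 (adjusted p = 0.0342).

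The call for *Cd2* was lost when any of 5 single libraries was left out (WT 8 or 10, or L 4, 5 or 6), in the fit of WT and L skin alone and with *Xist* as a covariate. *Cd28* lost its call without WT library 9 or 10. The number of members called in L against WT skin ran from 4 to 7 over the fits without one library, while *Cd4*, *Cd8a*, *Cd8b1* and *Cd5* were called in every such fit. The log2 fold change of *Cd8a* was 5.48 without WT library 10, and that of *Cd28* was 2.50 without WT library 8.

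**Figure D2:**
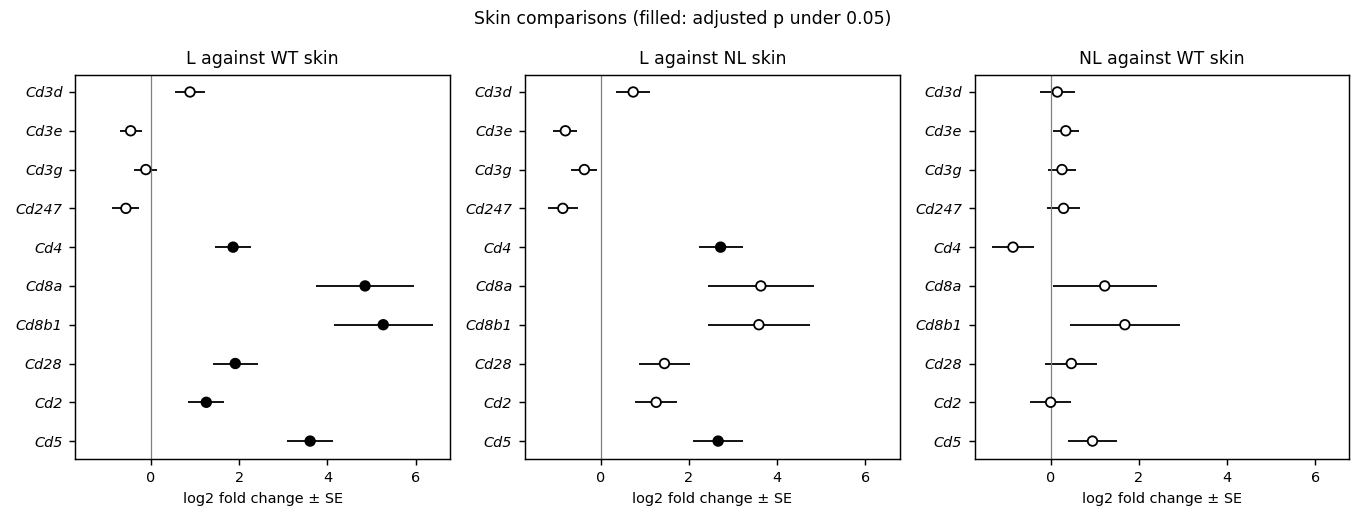
Log2 fold change of each member in L against WT, L against NL and NL against WT skin (x axis, log2 units, bars are SE); filled points passed an adjusted p of 0.05. The 6 filled points of L against WT skin are the coreceptors, *Cd28*, *Cd2* and *Cd5*, and *Cd4* and *Cd5* are the 2 filled in L against NL skin.

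Against NL skin, which shares its L libraries with the comparison above, *Cd4* and *Cd5* were the 2 of 10 members called higher, and 13.2% of all tested genes were. *Cd4* measured 1.74 and 0.858 CPM in NL libraries 2 and 3 (log2 fold change 2.72 ± 0.50, adjusted p = 0.00645). *Cd5* measured 1.07 and 1.03 CPM in NL skin (log2 fold change 2.66 ± 0.57, adjusted p = 0.0118). For both genes all L libraries lay above both NL libraries, as they did for *Cd28*, and 24.7% of tested genes were separated this way. The NL libraries disagreed on the CD8 genes, with 1.13 and 0.123 CPM for *Cd8a* and 0.554 and 0.0491 CPM for *Cd8b1*. Their log2 fold changes were 3.63 ± 1.20 (adjusted p = 0.0592) and 3.58 ± 1.16 (adjusted p = 0.0545). Without NL library 2 they were 5.98 and 6.18, and without NL library 3 they were 2.83 and 2.77. That of *Cd4* was 3.32 without NL library 2.

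*Cd3e* and *Cd247* were lower in all L than in both NL libraries, a separation seen for 24.7% of tested genes, with log2 fold changes of -0.81 ± 0.27 (adjusted p = 0.0614) and -0.86 ± 0.34 (adjusted p = 0.0945). Neither passed in edgeR. The count for L against NL skin rested on few libraries: it was 0 without NL library 3, 1 without NL library 2 and 6 without L library 7. DESeq2 called 7 of the 10 members in this comparison, against 28.2% of the genes it tested, with *Cd4*, *Cd8a*, *Cd8b1*, *Cd28*, *Cd2* and *Cd5* higher and *Cd3e* lower. The adjusted p of *Cd3e* was 0.0313 in DESeq2 and ran from 0.0313 to 0.115 over the alternatives with all libraries, and edgeR called it lower without L library 4 (adjusted p = 0.0369).

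Between NL and WT skin edgeR called 0 of the 10 members and 0% of all tested genes, and DESeq2 also called 0 of the members. At an unadjusted p under 0.05 there were 0 members, against 7.67% of tested genes. *Cd5* had a log2 fold change of 0.95 ± 0.56 (adjusted p = 0.718). *Cd4* was the member with the lowest value, at -0.86 ± 0.48 (adjusted p = 0.708), and the CD3 chains lay between 0.15 and 0.34.

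Levels per length (CPM per kilobase of exon) put *Cd3g* first in every skin group. In WT skin it stood at 5.67 ± 1.26 (SD, n = 3), and none of its libraries overlapped those of *Cd2*, the next gene, at 1.74 ± 0.66. *Cd2*, *Cd3d*, *Cd3e* and *Cd247* overlapped each with its neighbour, *Cd4* followed apart at 0.587 ± 0.229, and *Cd5*, *Cd8a*, *Cd28* and *Cd8b1* formed an overlapping low end from 0.110 down to 0.0641. In L skin *Cd3g* (5.22 ± 1.45, n = 4) overlapped *Cd2* (4.15 ± 1.69), and the order then ran *Cd3d*, *Cd8b1*, *Cd8a*, *Cd4*, *Cd5*, *Cd3e*, *Cd247* and *Cd28*, each but the last overlapping the gene before it. The CD8 genes stood near the end of the order in WT skin and in its middle in L skin, while *Cd3e* was the fourth in WT and the eighth in L skin.

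T cell receptor constant genes were read beside the CD3 chains. Of 7 tested, 3 were called higher and 2 lower in L than in WT skin, where 20.2% of all tested genes were called lower. *Trac*, the constant gene of the alpha chain, measured 0.160, 0.0237 and 0.420 CPM in WT and 1.88, 2.69, 3.28 and 1.53 CPM in L skin (log2 fold change 3.53 ± 0.71, adjusted p = 0.00455). *Trdc*, that of the delta chain, went the other way, with 13.7, 9.81 and 14.1 CPM in WT and 7.56, 6.19, 3.55 and 4.90 CPM in L skin (log2 fold change -1.17 ± 0.28, adjusted p = 0.00901). For both genes the L and WT libraries did not overlap. *Trgc1*, a gamma chain constant gene, fell by 1.63 ± 0.26 on the log2 scale (adjusted p = 0.00153) and *Trbc1*, a beta chain constant gene, rose by 1.70 ± 0.42 (adjusted p = 0.0117).

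The list of gamma delta and dendritic epidermal T cell genes held 9 tested genes, of which 5 were lower and 3 higher in L than in WT skin. Its summed level lay between 77.4 and 90.7 CPM in WT, between 76.3 and 95.8 CPM in NL and between 30.9 and 56.0 CPM in L skin. *Trdv4*, a variable gene of epidermal gamma delta T cells, fell by 3.51 ± 0.28 on the log2 scale (adjusted p = 9.77e-05) and had 0.328, 0.271, 0.308 and 0.378 CPM in L against 4.45, 2.45 and 4.23 CPM in WT skin. *Il17a* had no count in WT or NL skin and was among the 3 called higher. The share of these genes in the CD3 chain levels was not tested.

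Within a library, ratios of counts do not depend on scaling. *Cd28* over the mean of *Cd3d*, *Cd3e* and *Cd3g* was higher in all L than in all WT libraries, by 1.84 on the log2 scale, and *Cd247* over the same mean was lower in all, with a log2 difference of -0.67. Each had p = 0.0286 in an exact two-sided permutation test, the smallest that 4 against 3 libraries allow, and an adjusted p of 0.233 over the 30 ratio tests made. *Cd4* over *Cd8a* ranged from 4.54 to 16.8 in WT skin and was 1.04, 0.713, 1.08 and 6.15 in L libraries 4, 5, 6 and 7 (exact permutation p = 0.0857, adjusted p = 0.257). The WT ratios rest on *Cd8a* levels of at most 0.470 CPM, and these ratios are not corrected for gene length. The CD3 mean over *Ptprc* differed by -0.49 (exact permutation p = 0.143, adjusted p = 0.332) and *Cd8b1* over *Cd8a* by 0.16 (exact permutation p = 0.829, adjusted p = 0.921). None of the 30 tests passed after adjustment. The smallest p the exact permutation test allows was 0.0667 in L against NL and 0.1 in NL against WT skin. Tests of these 2 comparisons could therefore not pass at any difference. In L against WT skin a test at 0.0286 could pass only if many of the 30 had a p as low. The lack of a passing ratio in skin is thus no evidence that the ratios were alike.

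**Figure D3:**
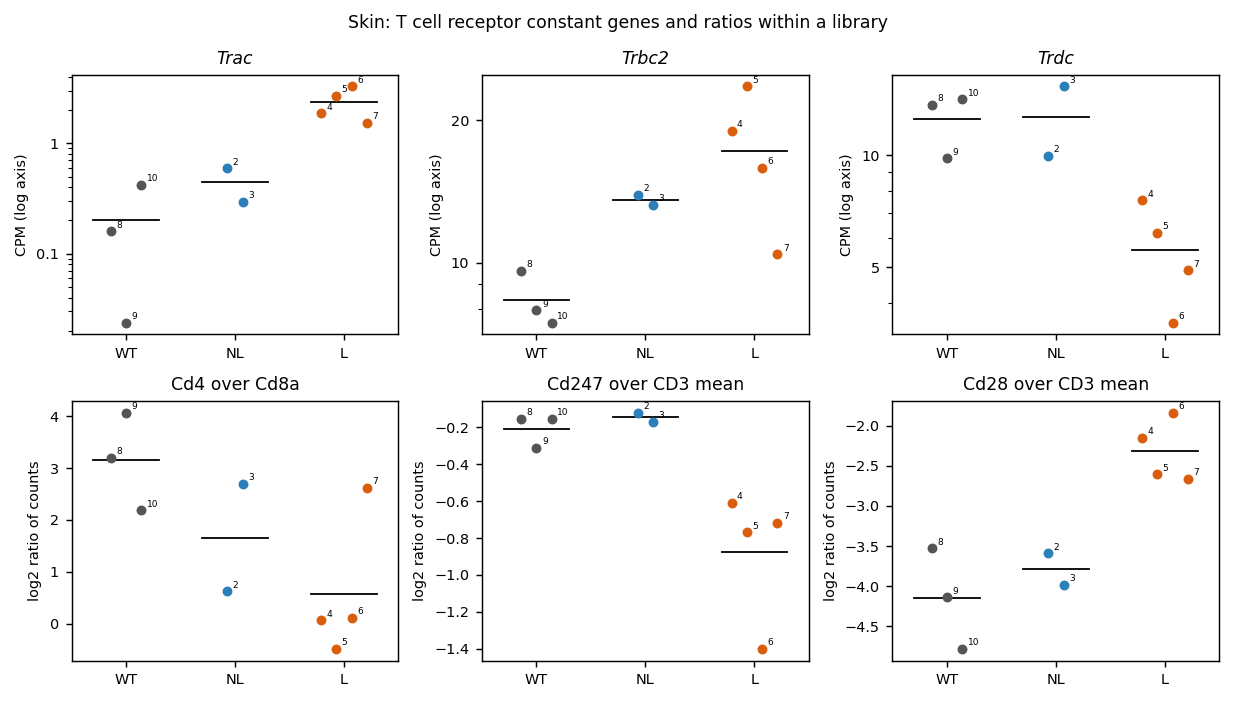
Upper row, level of 3 T cell receptor constant genes in CPM on log axes; lower row, log2 ratios of counts within a library, by skin group, with library numbers and group means as lines. *Trac* lies higher and *Trdc* lower in the 4 L libraries than in the 3 WT libraries, and *Cd28* over the CD3 mean is higher in all 4.

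Other genes of the T cell receptor pathway are read against the 23.0% of all tested genes called higher and the 20.2% called lower in L against WT skin. Of 27 genes of proximal receptor signalling, 10 were called higher and 3 lower, with a median log2 fold change of 0.53. *Sh2d1a*, encoding the adaptor SAP, had no count in WT skin and was called higher (adjusted p = 0.0109). *Ubash3a* (log2 fold change 3.76 ± 0.60), *Cd6* (3.69 ± 0.61) and *Sit1* (1.67 ± 0.51) followed, with adjusted p-values of 0.00146, 0.00180 and 0.0278. *Cd6* encodes a close relative of CD5. Of 13 costimulatory and inhibitory genes, a list not limited to the CD28 family, 11 were called higher. Among them were *Icos* (4.82 ± 0.69, adjusted p = 0.000918) and *Pdcd1*, encoding the inhibitory receptor PD-1 (4.47 ± 0.79, adjusted p = 0.00335). *Cd40lg* and *Tnfrsf9* were also among them. Of 15 T cell lineage transcription factors, 5 were called higher and 2 lower. *Foxp3*, which defines regulatory T cells, rose by 2.83 ± 0.66 (adjusted p = 0.00870), while *Satb1* fell by 1.79 ± 0.25 (adjusted p = 0.000838). *Lef1* rose most, by 7.05 ± 0.87 (adjusted p = 0.000589), and is also a gene of the hair follicle. Among 9 genes for ligands of the members, *H2-K1* was the one called higher (0.75 ± 0.23, adjusted p = 0.0284). Against NL skin 8 of the 13 costimulatory and inhibitory genes were called higher. Of the gamma delta list 2 were higher and 5 lower, where 11.8% of tested genes were called lower.

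Over the 9 skin libraries, Pearson's r of log2 CPM between *Cd8a* and *Cd8b1* was 0.99, and between *Cd3e* and *Cd247* 0.95. *Cd3d* had an r of -0.06 with *Cd3e* and 0.405 with *Cd3g*, but 0.88 with *Cd28* and 0.83 with *Cd5*. These libraries come from groups that differ, so r describes the pattern and nothing more. The genes most like the mean of the 3 CD3 chains among 19050 were *Olfr99* (r = 0.98), *Ccdc38* (0.94), *Stx12* (0.92), *Sla2* (0.91) and *Parp8* (0.91). Those most like *Cd4* were *Slamf7* (0.98), *Gm16685* (0.97), *Gpr18* (0.97), *H2-T3* (0.97) and *AU020206* (0.96), and those most like *Cd8a* were *Lman1l* (0.97), *Panx1* (0.97), *Aknad1* (0.97), *Ms4a4b* (0.97) and *Lct* (0.96).

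After UVB in WT mice 2 of the 10 members, *Cd2* and *Cd5*, were called lower by edgeR over 16173 tested genes, of which 2.06% were called lower. *Cd2* measured 297, 333 and 311 CPM in untreated libraries 1, 2 and 3 and 244, 241 and 251 CPM in irradiated libraries 7, 8 and 9 (log2 fold change -0.35 ± 0.08, adjusted p = 0.0343). *Cd5* measured 263, 236 and 254 CPM in untreated and 188, 196 and 197 CPM in irradiated nodes (log2 fold change -0.38 ± 0.09, adjusted p = 0.0396). For both genes the irradiated libraries lay below all untreated ones. Such a separation was found for 8 of the 10 members, the exceptions being *Cd8a* and *Cd28*, and for 17.3% of tested genes.

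The calls for *Cd2* and *Cd5* were lost when any one of the 6 WT libraries was left out and with *Xist* as a covariate. DESeq2 called 4 members, *Cd3g* and *Cd247* besides *Cd2* and *Cd5*, and 14.1% of the genes it tested. *Cd3g* measured 383, 401 and 388 CPM in untreated and 288, 311 and 319 CPM in irradiated nodes, a log2 fold change of -0.35 ± 0.10 (adjusted p = 0.0647). The value farthest from 0 was that of *Cd3d*, -0.40 ± 0.15 (adjusted p = 0.123), and *Cd28* had the one positive value, 0.15 ± 0.14 (adjusted p = 0.524).

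**Figure D4:**
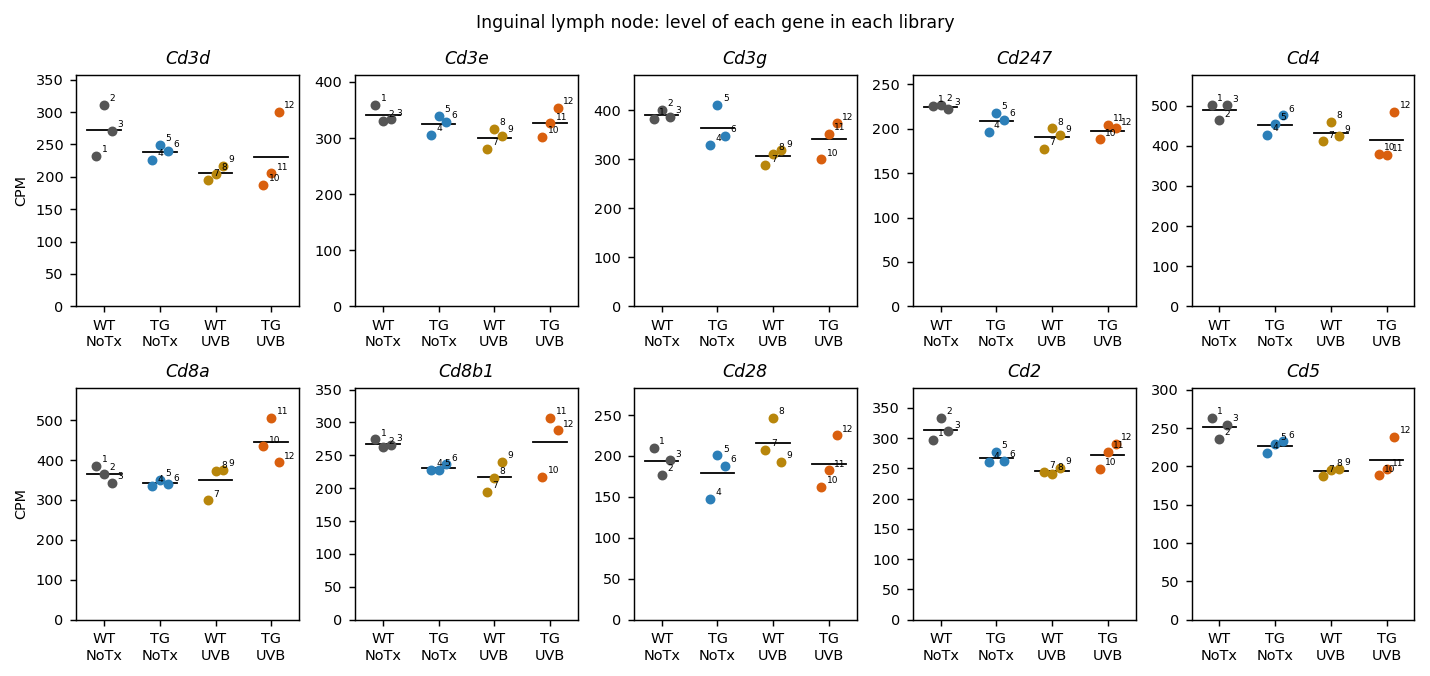
Level of each member in each lymph node library in CPM on axes from 0, by genotype (WT, *Ifnk* TG) and treatment (NoTx, UVB); points carry the library number and lines are group means. *Cd2* and *Cd5* are lower in the 3 irradiated than in the 3 untreated WT libraries, and no member was called after UVB in *Ifnk* TG nodes.

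In the same comparison, 4 of 8 heat shock and immediate early genes were called higher, as were 2.92% of tested genes, and 4 of 6 erythroid genes were called lower. The summed heat shock and immediate early level lay between 268 and 310 CPM in untreated and between 515 and 1586 CPM in irradiated WT nodes, and the erythroid sum between 121 and 264 CPM and between 10.8 and 39.5 CPM. Their part in the decreases of *Cd2* and *Cd5* was not tested. The 10 B cell markers summed to between 2799 and 3349 CPM in untreated and between 2703 and 3356 CPM in irradiated WT nodes. *Trbc2* was the one T cell receptor constant gene called lower (-0.46 ± 0.10, adjusted p = 0.0303), and *Icos* was higher (1.12 ± 0.19, adjusted p = 0.0213).

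In *Ifnk* TG nodes UVB gave 0 calls among the members and 0% of tested genes by edgeR, and 0 members by DESeq2. *Cd8a* was the 1 member with an unadjusted p under 0.05, against 9.32% of tested genes. It measured 336, 349.6 and 339 CPM in untreated libraries 4, 5 and 6 and 434, 505 and 394 CPM in irradiated libraries 10, 11 and 12 (log2 fold change 0.38 ± 0.11, adjusted p = 0.308). *Cd8b1* measured 228, 228 and 236 CPM in untreated and 217, 307 and 288 CPM in irradiated nodes (0.23 ± 0.12, adjusted p = 0.555).

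The difference between the responses of *Ifnk* TG and WT nodes to UVB was tested as an interaction. It gave 0 calls among the members and 0% of tested genes by edgeR, and 0 members by DESeq2. At an unadjusted p under 0.05 there were 3 members, *Cd2* (0.39 ± 0.12), *Cd8b1* (0.53 ± 0.16) and *Cd8a* (0.45 ± 0.15), against 5.45% of tested genes, and each had an adjusted p of 0.848. That *Cd2* and *Cd5* passed in WT and not in *Ifnk* TG nodes is therefore not shown to be a difference between the genotypes.

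**Figure D5:**
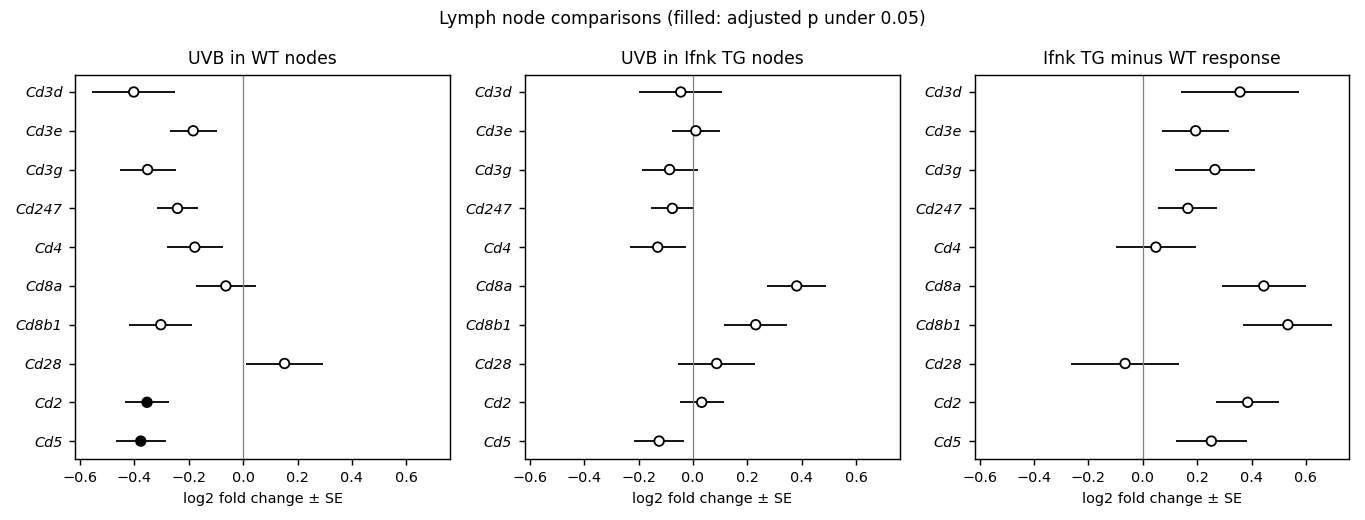
Log2 fold change of each member after UVB in WT nodes, in *Ifnk* TG nodes, and the difference between these responses (x axis, log2 units, bars are SE); filled points passed an adjusted p of 0.05. *Cd2* and *Cd5* in WT nodes are the 2 filled points.

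Untreated *Ifnk* TG and WT nodes gave 0 calls among the members and 0% of tested genes by edgeR, and 0 members by DESeq2. All 10 log2 fold changes were below 0, between -0.24 and -0.07, with a median of -0.11 against 0.00 over all tested genes. *Cd247*, *Cd8b1*, *Cd2* and *Cd5* were lower in all 3 *Ifnk* TG libraries than in all 3 WT libraries, which held for 4.93% of tested genes. *Cd2* was the 1 member with an unadjusted p under 0.05 (-0.24 ± 0.08), against 3.39% of tested genes, and its adjusted p was 1.00.

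After UVB, *Ifnk* TG against WT nodes again gave 0 calls among the members and 0% of tested genes by edgeR, and 0 members by DESeq2. *Cd8a* (0.35 ± 0.11) and *Cd8b1* (0.32 ± 0.12) were the 2 members with an unadjusted p under 0.05, against 6.99% of tested genes, and both had an adjusted p of 0.673. *Cd8a* measured 299, 372 and 376 CPM in irradiated WT nodes and 434, 505 and 394 CPM in irradiated *Ifnk* TG nodes.

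Over both genotypes *Cd5* was the 1 member called lower after UVB (log2 fold change -0.25 ± 0.07, adjusted p = 0.0356), against 3.80% of tested genes. DESeq2 called 4 members, *Cd3g*, *Cd247*, *Cd2* and *Cd5*, against 14.6% of the genes it tested. Without 1 library the count ran from 0 to 6, the 6 being reached without *Ifnk* TG library 12, and *Cd5* lost its call without any of 10 of the 12 libraries. Over both treatments the genotype gave 0 calls among the members and 0.00618% of tested genes by edgeR, 0 members by DESeq2 and 0 members at an unadjusted p under 0.05, against 4.66% of tested genes.

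Per length, *Cd8b1* and *Cd2* led in all 4 node groups and overlapped each other. In untreated WT nodes they stood at 180.2 ± 4.09 and 180.2 ± 10.3 CPM per kilobase (SD, n = 3), and *Cd247* (42.3 ± 0.480) and *Cd28* (31.7 ± 2.73) were at the end, each apart from its neighbours. *Cd3g*, the first gene per length in skin, was the fifth here at 119.5 ± 2.97 CPM per kilobase, overlapping *Cd4* at 121 ± 5.38.

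Of the ratios in nodes, *Cd28* over the CD3 mean had the smallest p. It was higher after UVB by 0.30 on the log2 scale (exact two-sided permutation p = 0.00500 with UVB labels permuted within genotype, the smallest attainable, adjusted p = 0.150). *Cd4* over *Cd8a* was between 1.27 and 1.46 in untreated WT and between 1.27 and 1.40 in untreated *Ifnk* TG nodes. This ratio was between 1.13 and 1.38 in irradiated WT and between 0.748 and 1.23 in irradiated *Ifnk* TG nodes. Its difference after UVB was -0.31 on the log2 scale (exact permutation p = 0.0350, adjusted p = 0.233). The differences after UVB were -0.20 for *Cd8b1* over *Cd8a* (exact permutation p = 0.0400, adjusted p = 0.233) and -0.21 for the CD3 mean over *Ptprc* (exact permutation p = 0.0700, adjusted p = 0.233).

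Over the 12 node libraries r was 0.91 between *Cd3g* and *Cd247* and 0.61 between *Cd8a* and *Cd8b1*, the pair that was nearly parallel in skin. The genes most like the mean of the 3 CD3 chains among 16136 were *Sumo2* (r = 0.96), *Npc2* (0.94), *Sdf4* (0.94), *Eif2s3x* (0.94) and *Snrpb2* (0.94). Those most like *Cd4* were *Smad4* (0.93), *Rnf2* (0.93), *Acsl4* (0.92), *Tbc1d15* (0.92) and *G3bp2* (0.91), and those most like *Cd8a* were *Pde2a* (0.89), *Fmo1* (0.88), *Mmut* (0.87), *Eomes* (0.85) and *Mcm3ap* (0.84).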

How the data were processed

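RNA was sequenced from 9 skin and 12 lymph node libraries. The authors trimmed paired reads with cutadapt 4.8, aligned them to GRCm38 with STAR 2.7.8a, estimated counts per gene with RSEM 1.3.3 and deposited these expected counts as whole numbers, not normalized. Reads carry no molecular identifiers, so depth covers counting error only. Groups came from the labels, which do not say that libraries are separate animals, so p-values measure the spread between libraries. No replicate pair agreed within sampling noise (chi-square per gene from 15.1 upward, where noise alone gives about 1).

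The filterByExpr step of edgeR 4.0.16 (R 4.3.3) used a minimum count of 10 and a minimum total of 15. Libraries were scaled by TMM, and all libraries of a tissue were fitted by group with robust quasi-likelihood. Adjusted p-values are edgeR's, Benjamini-Hochberg over all tested genes, with a threshold of 0.05. SE was derived from the F statistic. CPM are counts relative to the TMM-scaled library size. Ratios used counts plus 0.5, log2, and exact permutation. Of the 6 ratios 1 is not reported here, and not every test of the others is printed. All 30 tests were adjusted together. DESeq2 1.42.0, other scalings, filters and fits, and each library left out were alternatives. Of the 55491 gene identifiers, 55227 matched GENCODE M21.

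All 10 members are named in each comparison or summarised, and of each other list up to 4 called genes with the largest change. Members, lists and tests were chosen with earlier results of these data known. Scripts were tested on simulated counts. The first pass mark, recovery of most changed genes, was missed in skin, because 2-fold changes were seldom recovered there. The mark was then replaced, after this was seen, by limits on bias and false calls and by recovery of most 4-fold changes. A change near 2-fold in skin may therefore go uncalled.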

Additional observations from a re-analysis of the deposited data

How the results depend on the processing

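Leaving out 1 library at a time gave from 4 to 7 members called in L against WT skin, from 0 to 6 in L against NL skin, 0 to 0 after UVB in WT nodes, from 0 to 6 after UVB over both genotypes and 0 in each other comparison. The shares of all tested genes called in these fits are not given here, so these ranges are not read as particular to the members. At an adjusted p under 0.01 the counts were 4 in L against WT skin, 1 in L against NL skin and 0 in both UVB comparisons. Of all tested genes, 9.80% were called in L against NL skin at this threshold, and the share for L against WT skin is not given here. Against a log2 fold change of 1 (glmTreat) the counts were 3 in L against WT skin, 1 in L against NL skin and 0 in both UVB comparisons. The shares of all tested genes were then 9.07% in L against WT and 3.92% in L against NL skin. DESeq2 gave 7, 4 and 4 in L against NL skin, UVB in WT nodes and UVB over both genotypes. It called 28.2%, 14.1% and 14.6% of the genes it tested there. Upper-quartile scaling gave 2 for UVB over both genotypes, against 8.46% of all tested genes. For UVB in WT nodes the *Xist* covariate gave 0, against 1.05% of all tested genes, and the compared groups alone gave 5, against 15.9%. The cause of these changes was not tested. The sign of the log2 fold change turned for *Cd3d* in NL against WT skin (-0.12 with *Xist*), for *Cd3e* after UVB in *Ifnk* TG nodes (-0.019 with upper-quartile scaling and -0.0050 with the compared groups alone) and for *Cd3d* by genotype in nodes (0.0067 with upper-quartile scaling and 0.0044 with *Xist*). With a pseudocount of 5 it turned for *Cd8b1* over *Cd8a* in L against WT skin (-0.26). None of these had passed a test. Ranges without 1 library that cross 0, all log2, follow. In L vs WT skin they were -0.29 to 0.060 for *Cd3g* and -0.27 to 0.42 for Cd8b1 over Cd8a. In NL vs WT skin they were -0.055 to 0.49 for *Cd3g*, -0.066 to 0.56 for *Cd247*, -0.18 to 0.35 for *Cd2*, -0.055 to 0.64 for *Cd3e*, -0.31 to 0.49 for *Cd3d*, -0.92 to 2.48 for *Cd8b1*, -1.13 to 2.01 for *Cd8a* and -0.25 to 0.44 for Cd8b1 over Cd8a. In UVB in WT nodes they were -0.14 to 0.036 for *Cd8a*. In UVB by genotype interaction in nodes they were -0.075 to 0.13 for *Cd4* and -0.20 to 0.064 for *Cd28*. In UVB over both genotypes in nodes they were -0.098 to 0.022 for *Cd8b1* and -0.0084 to 0.070 for Cd247 over CD3 mean. In genotype over both treatments in nodes they were -0.017 to 0.080 for *Cd3g*, -0.080 to 0.020 for *Cd5*, -0.0043 to 0.063 for *Cd3e*, -0.13 to 0.066 for *Cd3d*, -0.038 to 0.12 for CD3 mean over Ptprc and -0.068 to 0.011 for Cd247 over CD3 mean. In UVB in Ifnk TG nodes they were -0.17 to 0.0095 for *Cd3g*, -0.071 to 0.19 for *Cd28*, -0.034 to 0.096 for *Cd2*, -0.066 to 0.069 for *Cd3e* and -0.30 to 0.091 for *Cd3d*. In Ifnk TG vs WT nodes after UVB they were -0.19 to 0.020 for *Cd4*, -0.0068 to 0.19 for *Cd5* and -0.064 to 0.32 for *Cd3d*. In L vs NL skin they were -0.093 to 0.054 for Cd8b1 over Cd8a. No paired analysis was possible because sample numbers run through all groups of a tissue, so that groups compared share none.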
